A study of Rattus norvegicus with 14 samples.

Results

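The genes described here are those with which a cell brings cholesterol into its mitochondria, cuts it to pregnenolone and reduces progesterone to allopregnanolone (Allo), together with both liver X receptors. They are *Tspo*, *Star*, *Cyp11a1*, *Fdx1*, *Fdxr*, *Srd5a1*, *Srd5a3*, *Akr1c14*, *Nr1h2* and *Nr1h3*, chosen by symbol from a fixed list. All 10 were found among the 18239 genes listed for neuron cultures and the 31791 listed for astrocyte cultures.

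RNA came from rat hippocampal cultures prepared at embryonic day 18 from Sprague Dawley rats. Neuron cultures on day 10 were held for 4 h in AM, a medium with less of the B27 supplement that the study used as an aging model, and then for 16 h in AM with 100 nM Allo (AM-Allo, 4 libraries) or with vehicle, 0.001% ethanol (AM-Veh, 4 libraries). Astrocyte cultures, shaken free of loosely attached cells, spent 24 h in their own AM, with 10% charcoal-stripped serum, before 24 h with Allo (3 libraries) or vehicle (3 libraries). Both treatment groups of a culture had thus been through AM, and cultures without AM were not analysed here. The labels do not say whether the libraries of a group came from separate cultures, so p-values measure the spread between these libraries, which may be technical.

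Allo is made from cholesterol in a short chain of steps. StAR and the translocator protein TSPO act at the outer mitochondrial membrane, where cholesterol enters, and CYP11A1 inside the mitochondrion cuts the side chain with electrons handed on by ferredoxin reductase and ferredoxin. After pregnenolone has been oxidized to progesterone, a 5α-reductase and then a 3α-hydroxysteroid dehydrogenase yield Allo, and the last step can run in both directions. The liver X receptors sense oxysterols, the oxidized forms of cholesterol, and switch on genes of cholesterol efflux and lipid synthesis.

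The values are normalized counts, estimated reads per gene divided by the authors' normalization factors. A single read was worth about 0.86 to 1.15 normalized counts, and the libraries held about 19400000 to 27900000 reads on genes, so a gene at 30 normalized counts stood on about as many reads. Both cultures were mixtures. The neuron cultures carried the neuronal markers *Map2* (24729 ± 682, AM-Veh, SD, n = 4) and *Dcx*, and all 9 astrocyte markers, with *Gfap* at 94233 ± 22406. In the astrocyte cultures *Gfap* stood at 135934 ± 4332 (AM-Veh, SD, n = 3), while the neuronal markers *Rbfox3*, *Nefl* and *Slc17a7* had means under 10 and *Map2* and *Stmn2* did not. Fibroblast and mural markers summed to 67879 to 81116 normalized counts in the astrocyte cultures with vehicle and to 670 to 1518 in AM-Veh neurons. Within that list *Dcn* and *Lum* had means under 10 in the astrocyte cultures. *Dcn* lay the other way from the sum, at 183 ± 81.4 in AM-Veh neurons (SD, n = 4) and 5.86 ± 3.43 with vehicle in astrocytes (SD, n = 3). Oligodendrocyte lineage markers summed to 38615 to 43079 normalized counts in AM-Veh neurons and to 3955 to 4141 in the astrocyte cultures with vehicle. In bulk RNA of this kind fewer cells of a type and less RNA per cell cannot be told apart.

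**Figure D1:**
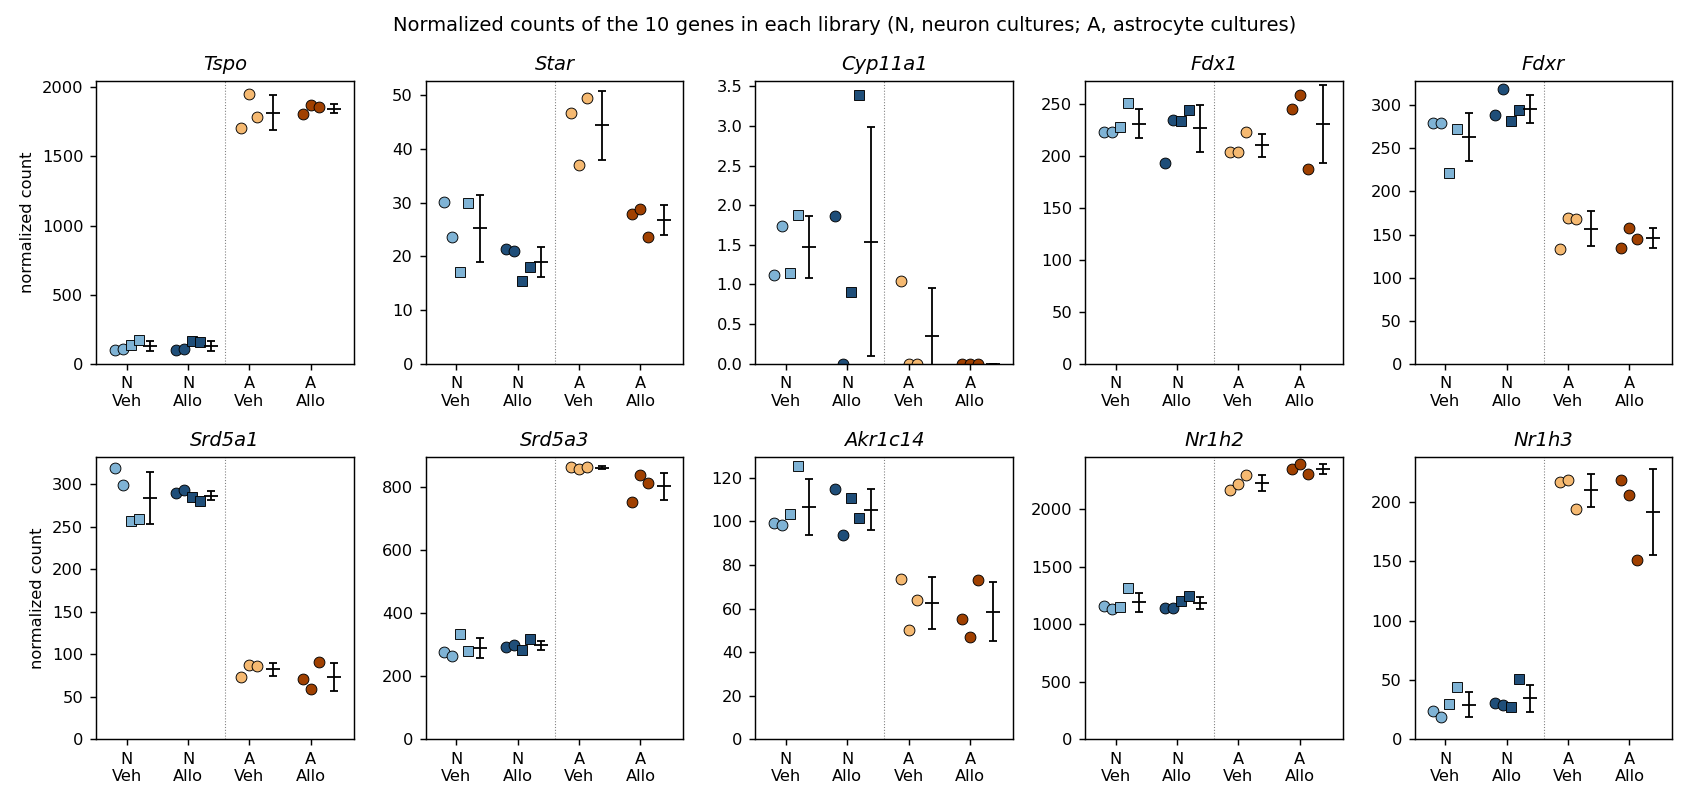
Normalized counts (y axis, linear, from 0) of the 10 genes in each of 8 neuron (N) and 6 astrocyte (A) libraries, with vehicle in light and Allo in dark colours; circles in neurons are replicates 1-1 and 1-2, squares are 2-1 and 2-2, and bars give the mean ± SD. *Cyp11a1* stays between 0 and 3.39, and in astrocytes the *Star* points of Allo (23.6 to 28.9) lie below all those of vehicle (37.1 to 49.5).

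*Cyp11a1*, the enzyme that commits cholesterol to steroid synthesis, was at the level of single reads. In neuron cultures its normalized count was 1.12, 1.74, 1.15 and 1.87 in the AM-Veh libraries (replicates 1-1, 1-2, 2-1 and 2-2, the order kept below) and 1.86, 0, 0.906 and 3.39 in the AM-Allo libraries. In astrocyte cultures it was 1.04, 0 and 0 with vehicle (replicates 1 to 3) and 0 in all 3 Allo libraries. The gene was at 0 in 1 of 8 neuron and 5 of 6 astrocyte libraries, and it fell short of the mean normalized count of 10 set for testing in both cultures. In the other 7 neuron libraries it stood on about 1 to 3 reads each. A value of 0 still allows up to about 3 reads in a library, so in astrocytes its transcript was not detectable at this depth beyond a single library.

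The other 9 genes were tested in both cultures with limma on log2 values after adding 1, and p-values were adjusted over all genes tested. No member passed an adjusted p of 0.05 for Allo against vehicle in either culture, where 0.0261% of all genes tested in neurons and 0.0065% in astrocytes did. At an unadjusted p under 0.05 there were 0 of 9 members in neurons, against 5.69% of all genes, and 1 of 9 in astrocytes, against 7.01% of all genes and 3.29% for genes lower with Allo. That 1 gene was *Star*. The neuron fit held no term for the replicate number. With a block for its leading digit 1 of 9 members in neurons, *Fdxr*, had an unadjusted p under 0.05, against 11.0% of all genes. None passed the adjustment there, against 0.679% of all genes. In neurons 5 members were higher and 4 lower with Allo (median log2 fold change 0.017, against −0.0015 over all genes tested), and in astrocytes 3 were higher and 6 lower (median −0.10, against 0.0014).

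*Star*, whose protein carries cholesterol across the mitochondrial membranes and limits the rate of steroid synthesis in classical steroid-making cells, was the member with the largest difference in both cultures. In astrocytes it was at 46.7, 37.1 and 49.5 normalized counts with vehicle and at 27.9, 28.9 and 23.6 with Allo. Every Allo library lay below every vehicle library, and the group means were 44.4 ± 6.50 and 26.8 ± 2.81 (SD, n = 3), a ratio of 0.603. The log2 fold change was −0.70 (SE 0.23, 95% interval −1.21 to −0.20), with an unadjusted p of 0.00967 and an adjusted p of 0.529 by limma. A two-sided exact permutation test gave p = 0.1, the smallest that 3 libraries against 3 allow. Groups without overlap were found for 12.5% of all genes tested in astrocytes, and the difference in *Star* did not pass the adjustment over 15380 genes.

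Some markers of astrocytes and of other cells were also lower in the Allo astrocyte libraries. Of 3 listed markers of choroid plexus and ependyma, the sum was 1294 to 1403 normalized counts with vehicle and 1128 to 1233 with Allo, led by *Folr1* (log2 fold change −0.23, unadjusted p = 0.00216, adjusted p = 0.395), and *Kl* had a mean under 10. *Ttr* of the same list overlapped, at 201 to 241 with vehicle and 211 to 245 with Allo. The microglial marker *Cx3cr1* was at 68.8 to 86.6 with vehicle and 41.0 to 61.0 with Allo, while the sum of all 11 microglial markers was 1704 to 2136 and 1741 to 1933. *Rgs5*, a pericyte marker, and *Slc1a2*, an astrocyte marker, had log2 fold changes of −0.55 and −0.36 (unadjusted p = 0.00471 and 0.0211). Of 6 fibroblast and mural markers tested, *Rgs5* among them, 4 were higher and 2 lower with Allo. *Pdgfrb* was at 3905 to 3969 with vehicle and 3886 to 4230 with Allo, and *Acta2* at 7199 to 9125 and 7462 to 9588. *Dcx* and *Map2*, among 10 listed neuronal markers, had log2 fold changes of −0.36 and −0.13 (unadjusted p = 0.0300 and 0.0299), and the summed neuronal list ran from 27371 to 28240 with vehicle and from 26579 to 27981 with Allo. Most of that sum was *Stmn2*, at 21790 ± 295 with vehicle and 21749 ± 695 with Allo (SD, n = 3). In AM-Veh neurons *Stmn2* was at 9470 ± 668 (SD, n = 4), so the sum says little about neurons in the astrocyte cultures. Of 9 astrocyte markers 1 was higher and 8 lower with Allo, 3 of the lower ones at an unadjusted p under 0.05 by limma, against 3.29% of all genes. *S100b* (4653 to 5010 with vehicle, 4446 to 4529 with Allo) and *Fabp7* (23908 to 24917 and 21846 to 23557) did not overlap. The summed astrocyte list was 260405 to 273538 with vehicle and 258347 to 260995 with Allo, and the fibroblast and mural list 67879 to 81116 and 73183 to 78445. The part of these cells in the *Star* values was not tested.

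In neurons *Star* was at 30.1, 23.7, 17.1 and 30.0 normalized counts in AM-Veh and at 21.4, 21.1, 15.4 and 18.05 in AM-Allo. The groups overlapped, because AM-Veh 2-1 was lower than 3 of the AM-Allo libraries. The log2 fold change was −0.37 (SE 0.23, 95% interval −0.89 to 0.15, unadjusted p = 0.144, adjusted p = 0.948), and without AM-Veh 2-1 it was −0.54 with an unadjusted p of 0.0361 and an adjusted p of 0.999. Within replicates 1-n and 2-n alone, the log2 difference was −0.32 and −0.42. The neuron and astrocyte tables were normalized separately, and whether the effect on *Star* differs between the cultures was not tested.

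*Tspo* encodes the outer-membrane translocator protein that is widely used as a marker of reactive glia. In astrocytes it was at 1704, 1953 and 1788 normalized counts with vehicle and 1810, 1871 and 1857 with Allo, so the Allo libraries lay within the range of vehicle. The log2 fold change was 0.027 (95% interval −0.082 to 0.14, adjusted p = 0.953). In neurons the values were 98.4, 107, 134 and 173 in AM-Veh and 96.7, 103, 165 and 156 in AM-Allo, with a log2 fold change of 0.017 (95% interval −0.47 to 0.50, adjusted p = 0.998). The replicates 2-1 and 2-2 of both groups were the high ones.

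Both carriers that feed electrons to CYP11A1, and to other mitochondrial cytochrome P450 enzymes, were read in every library. *Fdxr*, ferredoxin reductase, was at 279, 280, 221 and 273 normalized counts in AM-Veh neurons and at 288, 319, 282 and 295 in AM-Allo neurons. Every AM-Allo library lay above every AM-Veh library, which was so for 3.95% of all genes tested in neurons in one direction or the other, and *Fdxr* was the only member of which it was so. The log2 fold change was 0.17 (SE 0.089, 95% interval −0.022 to 0.37), with an unadjusted p of 0.0762, an adjusted p of 0.886 and a two-sided exact permutation p of 0.0286, the smallest that 4 libraries against 4 allow. Without AM-Veh 2-1, the lowest library, the log2 fold change was 0.093 (unadjusted p = 0.226). With a block for the leading digit of the replicate number the unadjusted p was 0.0430 (adjusted p = 0.442), in a fit where 11.0% of all genes had an unadjusted p under 0.05. Neuronal markers also differed between the treatments in these cultures. Of 10 tested, 4 were higher and 1 lower with Allo at an unadjusted p under 0.05, against 5.69% of all genes, and none after adjustment. *Map2*, *Tubb3* and *Dcx* did not overlap (*Map2* 23908 to 25576 in AM-Veh and 25684 to 27068 in AM-Allo). The summed list was 65299 to 72304 in AM-Veh and 69537 to 77545 in AM-Allo. For all 10 markers the log2 fold change with Allo was higher in the 2-n than in the 1-n libraries. That difference had an unadjusted p under 0.05 by limma for 8 of them, against 9.53% of all genes, and for none after adjustment. The part of the neuronal markers in the *Fdxr* values was not tested.

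In astrocytes *Fdxr* was at 133, 170 and 168 with vehicle and 135, 158 and 144 with Allo, and the groups overlapped (log2 fold change −0.100, 95% interval −0.39 to 0.19).

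*Fdx1*, the ferredoxin itself, ran from 223 to 251 normalized counts in AM-Veh and from 193 to 245 in AM-Allo neurons (log2 fold change −0.033, 95% interval −0.23 to 0.17). In astrocytes it was at 204, 204 and 223 with vehicle and 245, 259 and 188 with Allo, where Allo replicate 3 lay below all vehicle libraries and the other two above them. The log2 fold change was 0.12 (95% interval −0.15 to 0.39, adjusted p = 0.890).

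**Figure D2:**
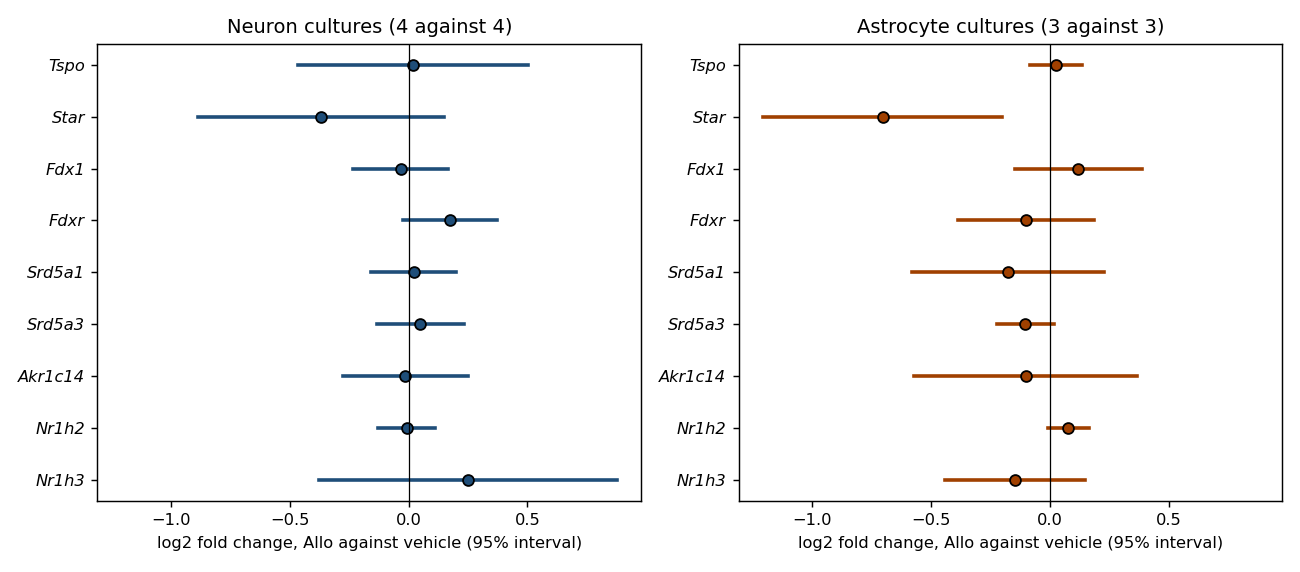
Log2 fold changes (x axis) of the 9 tested genes for Allo against vehicle in neuron (4 against 4 libraries) and astrocyte cultures (3 against 3), with points for the estimate and bars for the 95% interval from limma. The interval for *Star* in astrocytes (−1.21 to −0.20) is the only one that leaves out 0.

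*Srd5a1* encodes the 5α-reductase of the brain that turns progesterone into dihydroprogesterone, the direct precursor of Allo. In AM-Veh neurons it was at 319, 300, 257 and 259 normalized counts, and in AM-Allo neurons at 289, 293, 285 and 281. The means were close, 284 ± 30.6 and 287 ± 5.37 (SD, n = 4), and all AM-Allo libraries lay inside the range of AM-Veh. The log2 fold change was 0.021 (95% interval −0.16 to 0.20, adjusted p = 0.998). In astrocytes the gene was at 73.1, 87.5 and 86.2 with vehicle and at 70.8, 58.8 and 91.5 with Allo, again with overlap (log2 fold change −0.18, 95% interval −0.58 to 0.23, adjusted p = 0.895).

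*Akr1c14* encodes the rat 3α-hydroxysteroid dehydrogenase, which forms Allo from dihydroprogesterone and can turn it back. It was at 99.1, 98.2, 103 and 126 normalized counts in AM-Veh neurons and at 115, 93.9, 111 and 102 in AM-Allo neurons (log2 fold change −0.014, 95% interval −0.27 to 0.25). In astrocytes the values were 73.8, 50.1 and 63.8 with vehicle and 55.4, 46.9 and 73.2 with Allo (log2 fold change −0.10, 95% interval −0.57 to 0.37). Neither culture showed a difference beyond its spread. Since the AKR1C genes are close copies of each other, reads may have been shared between them in the authors' estimates, and values of single members are uncertain to that extent.

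*Srd5a3*, named for its likeness to the 5α-reductases but best known as the polyprenol reductase of protein glycosylation, was at 277, 264, 334 and 281 normalized counts in AM-Veh and 291, 299, 284 and 319 in AM-Allo neurons. In astrocytes it was at 864, 855 and 862 with vehicle and at 753, 839 and 812 with Allo. All Allo libraries lay below the narrow band of vehicle, with a log2 fold change of −0.10 (SE 0.056, 95% interval −0.22 to 0.017, unadjusted p = 0.0852, adjusted p = 0.770). *Srd5a1*, *Srd5a3* and *Akr1c14* all had negative log2 fold changes in astrocytes, and none of them passed the test.

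The liver X receptors differed little between treatments. *Nr1h2* (LXRβ, found in most tissues) was at 1164, 1132, 1153 and 1317 normalized counts in AM-Veh and 1141, 1139, 1205 and 1248 in AM-Allo neurons, a log2 fold change of −0.0086 (95% interval −0.13 to 0.11). In astrocytes it was at 2170, 2219 and 2303 with vehicle and 2354, 2394 and 2311 with Allo. Each Allo library was above all vehicle libraries, by a log2 fold change of 0.077 (SE 0.040, unadjusted p = 0.0723, adjusted p = 0.748). *Star*, *Srd5a3* and *Nr1h2* were thus the 3 of 9 members whose groups did not overlap in astrocytes, where 12.5% of all genes tested had no overlap.

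*Nr1h3* (LXRα, the form of liver, fat and macrophages) was low in neurons, at 24.3, 19.2, 29.7 and 44.1 normalized counts in AM-Veh and 30.8, 29.0, 27.3 and 51.2 in AM-Allo. Its log2 fold change was 0.25 with the widest interval among the neuron members (95% interval −0.38 to 0.87). In astrocytes it was at 217, 219 and 194 with vehicle and 218, 205 and 151 with Allo, where Allo replicate 3 was the lowest (log2 fold change −0.15, 95% interval −0.44 to 0.15).

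Neuron replicates carry numbers in 2 parts, and what the first part stands for is not given. Libraries 2-1 and 2-2 were compared with 1-1 and 1-2, 4 against 4 across both treatments and with treatment in the fit. For this split 17.2% of all genes passed an adjusted p of 0.05, and 29.3% an unadjusted one. Of the 9 members, *Tspo* passed after adjustment, and *Nr1h2*, *Nr1h3* and *Srd5a1* had an unadjusted p under 0.05.

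*Tspo* was at 96.7 to 107 normalized counts in the 1-n libraries and at 134 to 173 in the 2-n libraries. Libraries of one kind did not overlap those of the other. By limma the log2 difference was 0.62 (SE 0.11, 95% interval 0.39 to 0.85, adjusted p = 0.000918). *Srd5a1* lay the other way without overlap, at 289 to 319 in the 1-n and 257 to 285 in the 2-n libraries (log2 difference −0.15, unadjusted p = 0.0478, adjusted p = 0.166). These were 2 of 9 members without overlap, against 19.6% of all genes tested. *Nr1h3* differed by 0.52 (adjusted p = 0.157) and *Nr1h2* by 0.10 (adjusted p = 0.114). Without AM-Allo 2-1 *Nr1h3* reached an adjusted p of 0.0421 at 0.74, and without AM-Veh 2-1 *Nr1h2* reached 0.0310 at 0.14.

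Markers of several cell types differed along the same split. The sum of the 7 listed microglial markers, of 11, was 108 to 124 normalized counts in the 1-n and 167 to 183 in the 2-n libraries, led by *Cd68* (log2 difference 0.86, adjusted p = 0.000103), while the defining markers *Aif1*, *Cx3cr1*, *Csf1r* and *P2ry12* had means under 10. The astrocyte list summed to 245572 to 259239 and 281120 to 307494, with *Gfap* higher by 0.62 (adjusted p = 3.25e-08). Of its 9 markers 4 were higher and 2 lower in the 2-n libraries after adjustment. *Aldoc* was lower without overlap (means of 7638 in 1-n and 6620 in 2-n libraries). The fibroblast and mural list summed to 1013 to 2695 and 670 to 794, with 1 of 7 tested markers higher and 4 lower after adjustment. The oligodendrocyte lineage list summed to 42602 to 45659 and 38615 to 39339, the endothelial list to 43.4 to 62.4 and 67.9 to 127, and the choroid plexus and ependyma list to 184 to 249 and 114 to 170. Of 9 oligodendrocyte lineage markers 1 was higher and 6 were lower after adjustment. *Sox10* (means of 836 in 1-n and 1215 in 2-n libraries) and *Folr1* (12.3 and 20.7) lay opposite to the sums of their lists. The part of these cells in the *Tspo* values was not tested.

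The Allo effect itself did not pass a test of difference between the 1-n and 2-n libraries for any member, at an unadjusted p under 0.05 (9.53% of all genes) or after adjustment (0.0784%). The member with the lowest p was *Srd5a1*, with a log2 fold change of −0.087 in 1-n and 0.13 in 2-n (unadjusted p = 0.120).

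**Figure D3:**
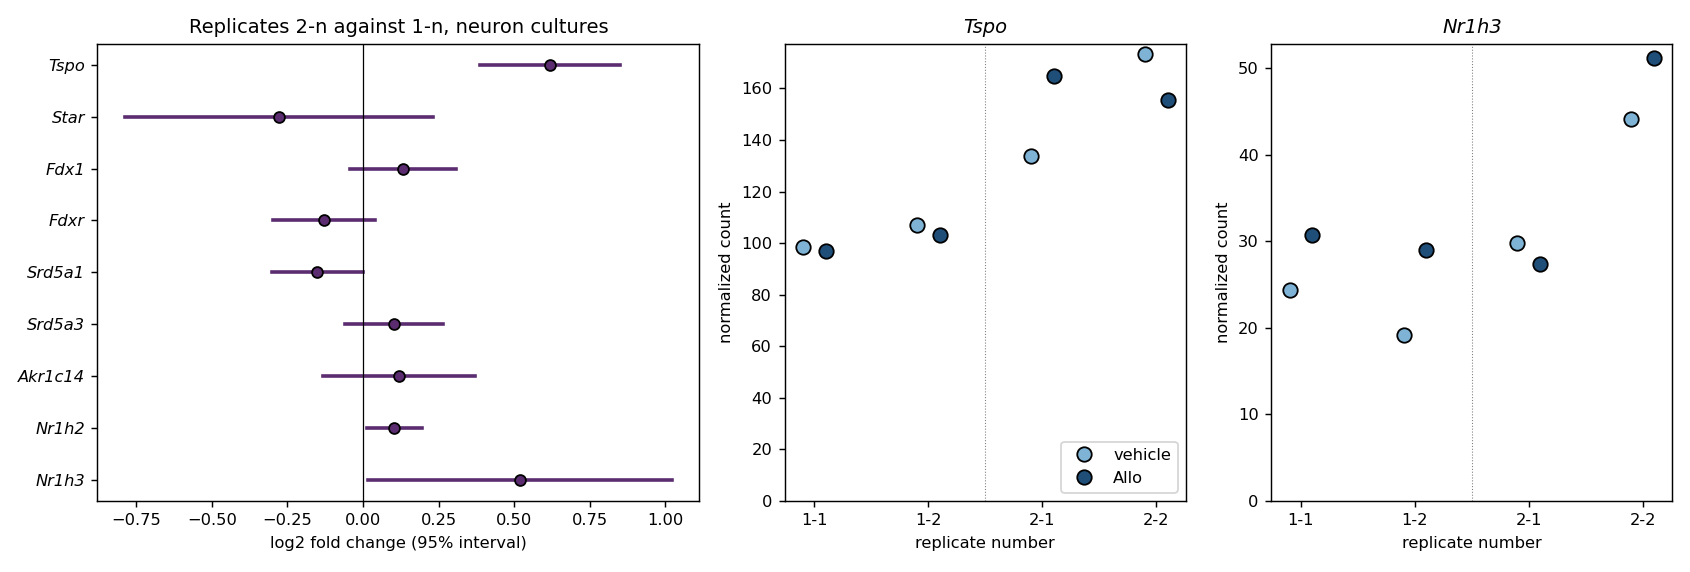
Left, log2 differences (x axis) of the 9 tested genes between neuron replicates 2-n and 1-n, with 95% intervals from limma; right, normalized counts (y axis from 0) of *Tspo* and *Nr1h3* in the 8 neuron libraries by replicate number. *Tspo* lies at 134 to 173 in the 2-n libraries of both treatments and at 96.7 to 107 in the 1-n libraries.

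To set the cultures side by side, each library was scaled to reads per 1000000 (RPM) over the 18236 symbols listed for both. The cultures differed in cells, medium and treatment time and their tables were normalized separately, so these levels are a description without a test. Between the cultures 71.3% of 16065 symbols compared did not overlap, and 7 of the 9 members did not.

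Of the reductases, *Srd5a1* and *Akr1c14* were higher in the neuron cultures and *Srd5a3* in the astrocyte cultures. *Srd5a1* had 12.8 ± 1.49 RPM in AM-Veh neurons (SD, n = 4) and 3.45 ± 0.321 in AM-Veh astrocytes (SD, n = 3), 3.72 times as much in neuron cultures. *Akr1c14* was at 4.81 ± 0.550 and 2.63 ± 0.508, 1.83 times as much, and *Fdxr* at 11.9 ± 1.34 and 6.57 ± 0.843, 1.81 times as much. *Srd5a3* lay the other way, at 13.05 ± 1.30 and 36.1 ± 0.335, 2.77 times as much in astrocyte cultures. No library of one culture reached the other for any of these 4 genes. Markers of neurons and of the oligodendrocyte lineage also differed, *Dcx* being at 559 RPM in AM-Veh neurons and 4.78 in AM-Veh astrocytes and *Olig2* at 405 and 8.53. Not all markers of these lists did so. *Stmn2* (428 and 914) and *Gad1* (56.5 and 75.6) lay the other way, and *Mog* overlapped (7.31 and 8.01). The part of these cells in the levels of the 4 genes was not tested.

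*Tspo* had the widest gap, with 5.78 ± 1.47 RPM in AM-Veh neurons and 76.1 ± 5.02 in AM-Veh astrocytes, a ratio of 13.2. *Nr1h3* was at 1.32 ± 0.475 and 8.80 ± 0.575, a ratio of 6.65, and *Nr1h2* at 53.8 ± 3.54 and 93.5 ± 2.72, a ratio of 1.74. All 11 microglial markers were listed in the astrocyte cultures with means of 10 or more, among them *Csf1r* at 298 to 401 and *Aif1* at 153 to 189 normalized counts with vehicle. Other markers differed by more, *Col1a2* being at 5.23 RPM in AM-Veh neurons and 1248 in AM-Veh astrocytes, *Acta2* at 1.66 and 348 and *Folr1* at 0.697 and 47.2. Not all markers of these lists did so. *Dcn* lay the other way, at 8.28 and 0.246, and *Lum*, *Kl* and *Ttr* overlapped between the cultures (*Ttr* 7.32 and 9.45). The part of microglia, fibroblast and mural cells, or choroid plexus in the *Tspo* and *Nr1h3* levels was not tested. *Star* overlapped between the cultures (0.695 to 1.37 and 0.983 to 2.08 over all libraries), as did *Fdx1* (8.76 to 11.2 and 7.83 to 10.9).

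**Figure D4:**
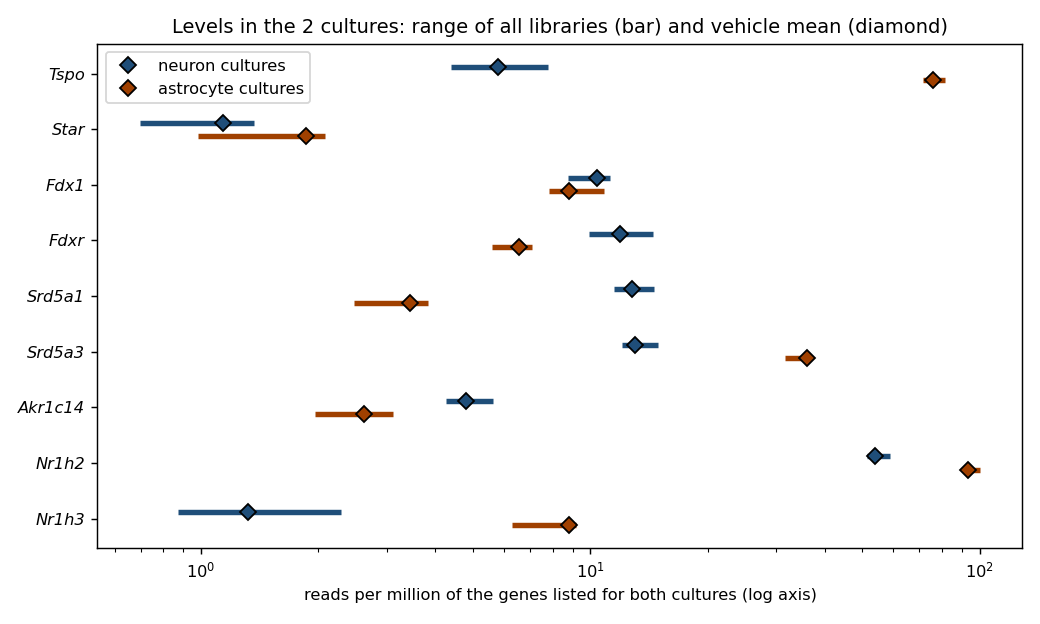
RPM over the symbols listed for both cultures (x axis, log scale) for the 9 genes, with bars for the range over all 8 neuron or 6 astrocyte libraries and diamonds for the AM-Veh means. *Tspo* (5.78 against 76.1) and *Nr1h3* (1.32 against 8.80) lie to the right in astrocytes, and *Srd5a1* (12.8 against 3.45) to the right in neurons.

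The rest of the pathway was followed through 6 lists of 90 genes, of which 62 were tested in neurons and 61 in astrocytes. At an unadjusted p under 0.05 1 of them was higher and 1 lower with Allo in neurons, and 3 were higher and 3 lower in astrocytes, with none past the adjustment. These were 2 of 62 and 6 of 61 genes, beside 5.69% and 7.01% of all genes tested. With the neuron libraries blocked by the leading digit of their number, 4 were higher and 1 lower at an unadjusted p under 0.05 (11.0% of all genes) and 1 was higher after adjustment (0.679% of all genes). Allo and vehicle libraries did not overlap for 0 of 62 genes in neurons (3.95% of all genes) and 8 of 61 in astrocytes (12.5%). The median log2 fold changes were 0.0038 and 0.00013, beside −0.0015 and 0.0014 over all genes tested.

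Among 13 genes of cholesterol delivery to mitochondria, 12 were tested in each culture. In astrocytes *Vdac1*, the channel of the outer membrane, was at 5290 to 5526 normalized counts with vehicle and 5656 to 6009 with Allo (log2 fold change 0.11, unadjusted p = 0.00847, adjusted p = 0.524). *Acbd3*, an acyl-CoA-binding protein that pairs with TSPO, was at 1662 to 1679 and 1737 to 1888 (0.098, adjusted p = 0.709). *Dbi*, the diazepam-binding inhibitor and natural ligand of TSPO, was at 4290 to 4713 and 4168 to 4224 (−0.095, unadjusted p = 0.0308, adjusted p = 0.684). The groups of these 3 genes did not overlap, nor did those of *Stard3nl*, a late-endosomal protein related to STARD3, at 786 to 843 with vehicle and 734 to 777 with Allo (−0.11, unadjusted p = 0.0777). In neurons none of the list had an unadjusted p under 0.05, *Dbi* being at 14715 to 15606 in AM-Veh and 15033 to 15167 in AM-Allo. *Npc2*, which moves cholesterol out of lysosomes, had log2 fold changes of −0.028 in neurons and 0.031 in astrocytes.

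Of 22 genes of steroid synthesis and oxidation, 10 were tested in neurons and 11 in astrocytes. The further 5α-reductase gene *Srd5a2* was at 1.12 to 5.58 normalized counts in neurons and 0 to 4.18 in astrocytes, and *Hsd3b5*, of the family that makes progesterone, at 1.01 to 9.15 and 0 to 4.97, so neither was tested. The highest normalized counts, which are not corrected for length, were those of *Por*, the reductase that serves microsomal P450 enzymes, and *Hsd17b12* in neurons (AM-Veh 3467 ± 402 and 3427 ± 173, SD, n = 4), and of *Hsd17b4* and *Por* in astrocytes (5236 ± 36.0 and 4313 ± 115, SD, n = 3). *Rdh5*, a retinol dehydrogenase, had the only unadjusted p under 0.05, at 13.8 to 33.6 with vehicle and 7.55 to 14.6 with Allo in astrocytes, which overlapped (log2 fold change −0.95, SE 0.39, unadjusted p = 0.0288, adjusted p = 0.683).

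Of 11 other AKR1C genes in the list, 2 were tested in neurons and 3 in astrocytes, and none had an unadjusted p under 0.05. *Akr1c19* was at 44.5 ± 6.87 normalized counts in AM-Veh neurons (SD, n = 4) and 448 ± 15.0 in AM-Veh astrocytes (SD, n = 3), or 2.01 and 18.8 RPM, so it lay opposite to *Akr1c14* between the cultures. Its Allo libraries ran from 26.2 to 51.0 in neurons and from 318 to 481 in astrocytes, overlapping vehicle in both. *Akr1c12* was at 13.2 to 16.9 in AM-Veh neurons and 27.0 to 38.02 in AM-Veh astrocytes.

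The list of steroid sulfation, hydroxylation and sulfatase genes had 12 members, 9 tested in neurons and 8 in astrocytes. *Cyp7b1*, the oxysterol and neurosteroid 7α-hydroxylase, had log2 fold changes of −0.041 in neurons and −0.017 in astrocytes. *Cyp1b1*, an estrogen hydroxylase, was the only one with an unadjusted p under 0.05, at 793 to 904 normalized counts with vehicle and 881 to 1014 with Allo in astrocytes (0.15, adjusted p = 0.686). In neurons it was at 128 to 214 and 165 to 332 (0.44, unadjusted p = 0.0857, and 0.000761 with an adjusted p of 0.0832 when blocked by the leading digit of the replicate number). *Sult4a1*, a brain sulfotransferase, was in neurons at 1813 to 2116 in AM-Veh and had a mean under 10 in astrocytes, where *Sumf1*, which activates sulfatases, was at 1695 to 1718 with vehicle.

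Among 20 partners of the liver X receptors and other steroid sensors, 17 were tested in neurons and 15 in astrocytes, and none had an unadjusted p under 0.05 in either. *Pgrmc1*, a membrane-associated progesterone receptor component, had log2 fold changes of 0.0042 in neurons and −0.077 in astrocytes. *Ncor1*, a corepressor of nuclear receptors, stood at 0.019 in neurons, and *Nr3c1*, the glucocorticoid receptor, at 0.0037 in astrocytes.

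All 12 target genes of the liver X receptors were tested. In neurons *Fasn*, fatty acid synthase, was higher with Allo, at 8289 to 9441 against 9234 to 10091 normalized counts (0.14, unadjusted p = 0.0143, adjusted p = 0.712). With the block by leading digit its adjusted p was 0.0120, and with a block by the whole number 0.0206, so *Fasn* was the 1 pathway gene called in the blocked fits. *Mylip*, which marks the LDL receptor for breakdown, was lower, at 174 to 231 against 151 to 176 (−0.27, unadjusted p = 0.0286, adjusted p = 0.795). In astrocytes *Smpdl3a*, a phosphodiesterase, was lower, at 4252 to 4458 against 4041 to 4185 (−0.097, unadjusted p = 0.0176, adjusted p = 0.621). The classical targets *Abca1* and *Apoe* had log2 fold changes of −0.072 and 0.019 in neurons and −0.085 and −0.085 in astrocytes, and *Srebf1* of 0.048 and 0.064. None of these 3 had an unadjusted p under 0.05.

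The same lists were read between the 1-n and 2-n neuron libraries. Of the 62 pathway genes tested, 14 were higher and 7 lower in the 2-n libraries after adjustment, beside the 17.2% of all genes given above. The target genes of the liver X receptors held 5 of the higher ones, among them *Srebf1* (log2 difference 0.65, adjusted p = 3.4e-07), *Smpdl3a* (0.67, adjusted p = 1.07e-06) and *Apoe* (0.16, adjusted p = 0.00175), and 1 lower one, *Fasn* (−0.13, adjusted p = 0.00124).

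**Figure D5:**
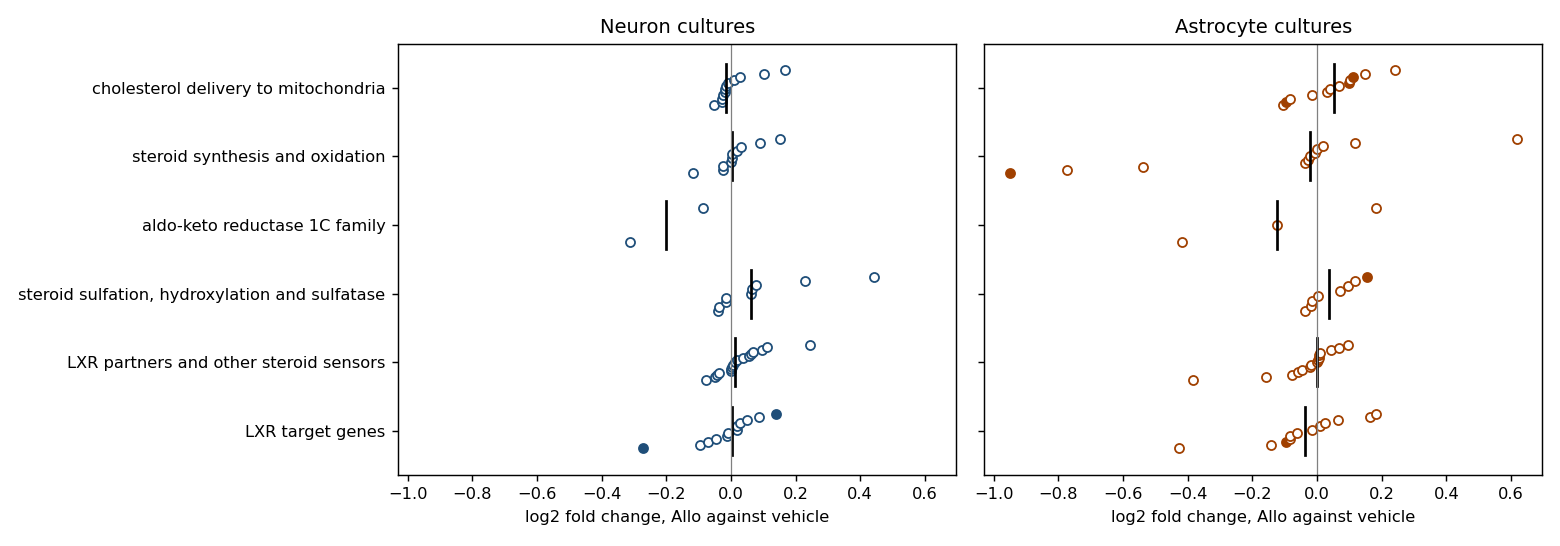
Log2 fold changes for Allo against vehicle (x axis) of the tested pathway genes by list, 62 in neuron and 61 in astrocyte cultures; filled points have an unadjusted p under 0.05 and black lines mark list medians. The filled points are 2 in neurons and 6 in astrocytes, and the one farthest from 0 is *Rdh5* in astrocytes (−0.95).

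With the mean of each of the 4 groups taken out, the genes whose log2 values followed a member most closely over the 14 libraries were sought among 14385 genes with a mean of at least 10 in both cultures. For *Tspo* they were *Plin2*, a lipid-droplet coat protein (Pearson's r 0.98), *Tmem268* (0.98) and *Vat1* (0.98). Over 8 neuron and 6 astrocyte libraries alone, r was 0.98 and 0.90 for *Plin2*, 0.98 and 0.87 for *Tmem268* and 0.99 and 0.45 for *Vat1*. For *Srd5a1* they were LOC100364016 (0.92), *Kbtbd3* (0.91) and *Dctpp1* (0.91), and for *Akr1c14* they were *Trip11* (0.95), an unnamed gene (0.89) and *Mtus2* (0.87). For these 6 genes r ran from 0.44 (*Mtus2*) to 0.94 (*Kbtbd3*) in neurons and from 0.92 to 0.99 in astrocytes. These correlations are descriptions, since the points share library depth and, in neurons, the split by replicate number.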

How the data were processed

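RNA-seq values of 8 neuron and 6 astrocyte libraries were grouped by the cell type and treatment in their labels. The authors made stranded poly(A) libraries, ran Salmon 0.14 on rat transcripts (Ensembl release 95), collected them per gene through tximport 1.6.0 and deposited a normalized signal, estimated counts divided by DESeq2 1.18.1 factors. The authors also deposited variance-stabilized values on a log2 scale (VST), used as an alternative. The lowest values were not all whole multiples of 1 step, so reads were not recovered and depth is approximate. Intervals cover the spread between libraries.

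Genes that averaged 10 normalized counts or more (15314 in neurons, 15380 in astrocytes) were fitted on log2(value + 1) with limma 3.58.1 (eBayes with a trend) in R 4.3.3, each culture alone, with Benjamini-Hochberg adjustment over all genes tested. Fold changes are on that scale and understate changes of low genes. The fit was tested on simulated data. Transcript lengths and a genome of the authors' build were not used here, so abundance within a list is by normalized count without regard to length, and no positions are given. No deposited columns were left unused.

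Members, lists and tests were chosen with earlier results of these data known. Named were all members and, from each list, the 2 most abundant genes in each culture and up to 3 with an unadjusted p under 0.05. *Srd5a2*, *Hsd3b5*, *Stard3nl*, *Tubb3*, *Acta2*, *Cx3cr1*, *Rgs5*, *Slc1a2*, *S100b*, *Fabp7*, *Gad1*, *Mog* and the genes named for replicates 2-n against 1-n, other than those, were named after their values were seen. Same-numbered neuron libraries deviated together (correlations over genes of 0.296, 0.229, 0.265 and 0.273). Libraries that shared only the first number did so nearly as much (0.185, 0.236, 0.211 and 0.196). Those with different first numbers had correlations of −0.319 to −0.150. These values show the split by first number more than pairs within it. A block by the first number or by the whole number was an alternative.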

Additional observations from a re-analysis of the deposited data

Results flagged for a closer look

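In 3 of 20 neuron groups of 4 libraries, 1 library stood apart from the other three by more than the 95% limit of Dixon's test, and chance gives about 1 in 20. *Fdx1* was at 251 normalized counts in AM-Veh 2-2, and without it the log2 fold change for Allo was 0.0073 in place of −0.033. *Fdxr* was at 221 in AM-Veh 2-1, and without it the log2 fold change was 0.093 in place of 0.17 (unadjusted p = 0.226). *Nr1h3* was at 51.2 in AM-Allo 2-2, and without it the log2 fold change was 0.048 in place of 0.25. The cause of these values was not tested.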

How the results depend on the processing

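No member passed the adjusted threshold for Allo in either culture under any alternative run. *Star* in astrocytes stayed lower with an unadjusted p of 0.00224 to 0.0461 (adjusted p 0.467 to 0.959) in all alternatives but the minimum mean of 50, where it was not tested (its VST difference was −0.087) and the members at an unadjusted p under 0.05 went from 1 to 0. The count in neurons went from 0 to 1 with VST values and with a replicate block by the first or the whole number, through *Fdxr* (log2 fold change 0.076 on the compressed VST scale and 0.17 with the blocks, unadjusted p 0.0276, 0.0430 and 0.0378). The neuron VST values had equal means in the 1-n and 2-n libraries, so they are not an alternative independent of the blocks. Leaving out 1 library gave 0 to 1 members in neurons, 1 to 2 in astrocytes (*Nr1h2* joined without vehicle 3, *Srd5a3* without Allo 2, *Fdx1* at 0.26 without Allo 3) and 1 to 2 after adjustment for replicates 2-n against 1-n. It turned the sign of small log2 fold changes, which ranged in neurons from −0.11 to 0.17 for *Tspo*, −0.024 to 0.079 for *Srd5a1*, −0.072 to 0.041 for *Fdx1*, −0.057 to 0.067 for *Akr1c14* and −0.035 to 0.040 for *Nr1h2*, and in astrocytes from −0.018 to 0.081 for *Tspo*, −0.27 to 0.043 for *Akr1c14* and −0.25 to 0.016 for *Nr1h3*. The causes were not tested.

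Over all genes, an unadjusted p under 0.05 was found for 872 in neurons and an adjusted one for 4. These counts were 2204 and 158 with VST values, 1684 and 104 when blocked on the leading digit, 1634 and 93 when blocked on the whole number, and without the trend 904 and 0. In astrocytes 1 gene passed after adjustment, against 72 without Allo 1, 17 with a replicate block, 4 with a robust fit, 3 without vehicle 2 and 0 without the trend or at a minimum mean of 50. Astrocyte numbers did not pair (correlations −0.0070 to 0.024), and the block changed no member's call. Upper-quartile scaling moved the share of higher genes among those at an unadjusted p under 0.05 from 53.1% to 35.3% in astrocytes. All 18239 genes of the neuron VST table had equal means in the 1-n and 2-n libraries (tolerance 1e-06), so that split could not be read from it. The fit on VST values held no term for the split already taken out, so its p-values in neurons are too low and its counts too high. Levels per length were not run. At about 1 normalized count per read, *Star*, *Nr1h3* in neurons and *Cyp11a1* were the members most limited by depth.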
